A study of Mus musculus with 47 samples.

Results

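The genes described here make, cut and clear the amyloid precursor protein in mouse brain. They are App, which encodes the precursor, Bace1, Adam10, Psen2, Psenen, Ncstn, Aph1a, Mme and Ide. They were listed by name, and all 9 were found among the 55416 gene rows of both count tables. RNA was sequenced from brains of 3xTg mice, a model of Alzheimer's disease, after 9 months on the Control amino acid-defined diet or on a diet low in isoleucine (IleR), leucine (LeuR) or valine (ValR). The diets began when the mice were 6 months old. Males comprised 4 Control, 3 IleR, 3 LeuR and 4 ValR libraries, and females comprised 6 Control, 5 IleR, 6 LeuR and 6 ValR libraries. The remaining 10 male libraries named in the labels had no column in the male count table used here, whereas every female library had one. The paper's methods report that outliers were taken out after a principal component analysis. Whether these 10 were among them is not stated. All 8 groups carried the 3xTg genotype, so no library here shows the genes in a brain without it. 3xTg mice carry mutant human APP and tau transgenes driven in neurons, and a mutant presenilin knocked into the mouse gene. Total counts ran from 12682687 to 25722333 in males and from 10672599 to 21370973 in females.

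The amyloid precursor is a membrane protein that can be cut by competing routes. α-Secretase, for which ADAM10 is the main neuronal enzyme, cuts within the amyloid-β sequence. β-Secretase, encoded by Bace1, cuts at its start, and γ-secretase, a complex of presenilin, nicastrin, APH-1 and PEN-2, then releases amyloid-β from the membrane. Neprilysin (Mme) and insulin-degrading enzyme (Ide) are proteases that break down the released peptide.

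Of the 9 genes, Psen2 and App were the ones that passed the test for a diet difference, in males. Psen2 was higher in all 3 restricted diets and App was lower in ValR. App spans chr16:84949685-85173766 and Psen2 chr1:180227004-180263438 (GRCm38, GENCODE M21, both on the minus strand). The others are protein-coding genes at chr9:45838580-45864399 (Bace1, plus strand), chr9:70678997-70780229 (Adam10, plus), chr7:30561863-30563627 (Psenen, minus), chr1:172066013-172082795 (Ncstn, minus), chr3:95893969-95898288 (Aph1a, plus), chr3:63241537-63386030 (Mme, plus) and chr19:37268743-37337852 (Ide, minus). The promoters of App and Psen2 are shown because these genes carry the calls. RefSeq windows of the 250 bases before the transcription start (GRCm38.p6) matched 8 of the 9 genes, with 12 windows in all. The App window lay at chr16:85173708-85173957 and the Psen2 window nearest the outermost annotated start at chr1:180256301-180256550, both on the minus strand. The Psen2 start was 7138 bases inside the gene's outer boundary in the GENCODE annotation, and that of App was 59 bases inside. Capitals mark GC boxes, the letters GGGCGG or their reverse complement.
App: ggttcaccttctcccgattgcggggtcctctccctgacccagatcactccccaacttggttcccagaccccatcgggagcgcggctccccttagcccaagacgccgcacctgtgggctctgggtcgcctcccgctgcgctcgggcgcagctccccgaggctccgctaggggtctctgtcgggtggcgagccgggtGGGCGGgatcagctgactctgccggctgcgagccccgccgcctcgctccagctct
Psen2: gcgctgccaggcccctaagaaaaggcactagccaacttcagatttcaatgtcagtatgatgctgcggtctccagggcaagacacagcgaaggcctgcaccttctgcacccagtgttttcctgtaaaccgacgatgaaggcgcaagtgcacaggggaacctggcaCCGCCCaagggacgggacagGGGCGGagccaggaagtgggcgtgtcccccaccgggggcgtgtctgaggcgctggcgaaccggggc
The App window held 1 GC box and had a GC content of 70.8%, and the Psen2 window held 2 and had 62.8%. Over all 32851 windows of the same length, 32.7% held a GC box on either strand and the median GC content was 52.4%. TATAAA was in neither window, on either strand, and in 12.4% of all windows. A match of letters is a description and not a binding site.

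Levels were compared between the genes per length, as CPM (counts scaled to the size of each library) divided by the length in kb of the longest annotated coding transcript. In male Control mice App was the highest, at 248 CPM per kb ± 18.2 (SD, n = 4). Psenen followed at 35.9 ± 1.45, Ncstn at 24.3 ± 1.38, Adam10 at 20.5 ± 0.724, Bace1 at 19.2 ± 1.23 and Aph1a at 17.7 ± 2.03 CPM per kb. Ide had 11.0 ± 0.763, Psen2 7.65 ± 0.893 and Mme 2.41 ± 1.10 CPM per kb. The libraries of Adam10 and Bace1 overlapped, as did those of Bace1 and Aph1a, and all other neighbours in this order were apart. Female Control mice (n = 6) gave the same order of means, with App at 232 ± 28.0 and Mme at 2.21 ± 1.53 CPM per kb. Ncstn and Adam10, Bace1 and Aph1a, and Ide and Psen2 overlapped in females. When the length of all exons together was used, the order among Psenen, Ncstn, Adam10 and Bace1 changed, with 19.9 for Psenen and 19.1 for Adam10 CPM per kb in males, whereas App stayed highest and Ide, Psen2 and Mme lowest. The libraries of Mme spread most in 7 of the 8 groups, with a coefficient of variation from 11.7% to 45.9% across the male groups and from 25.6% to 69.1% across the female groups. Reads of the human APP transgene that match the mouse sequence cannot be told apart from those of mouse App.

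**Figure D1:**
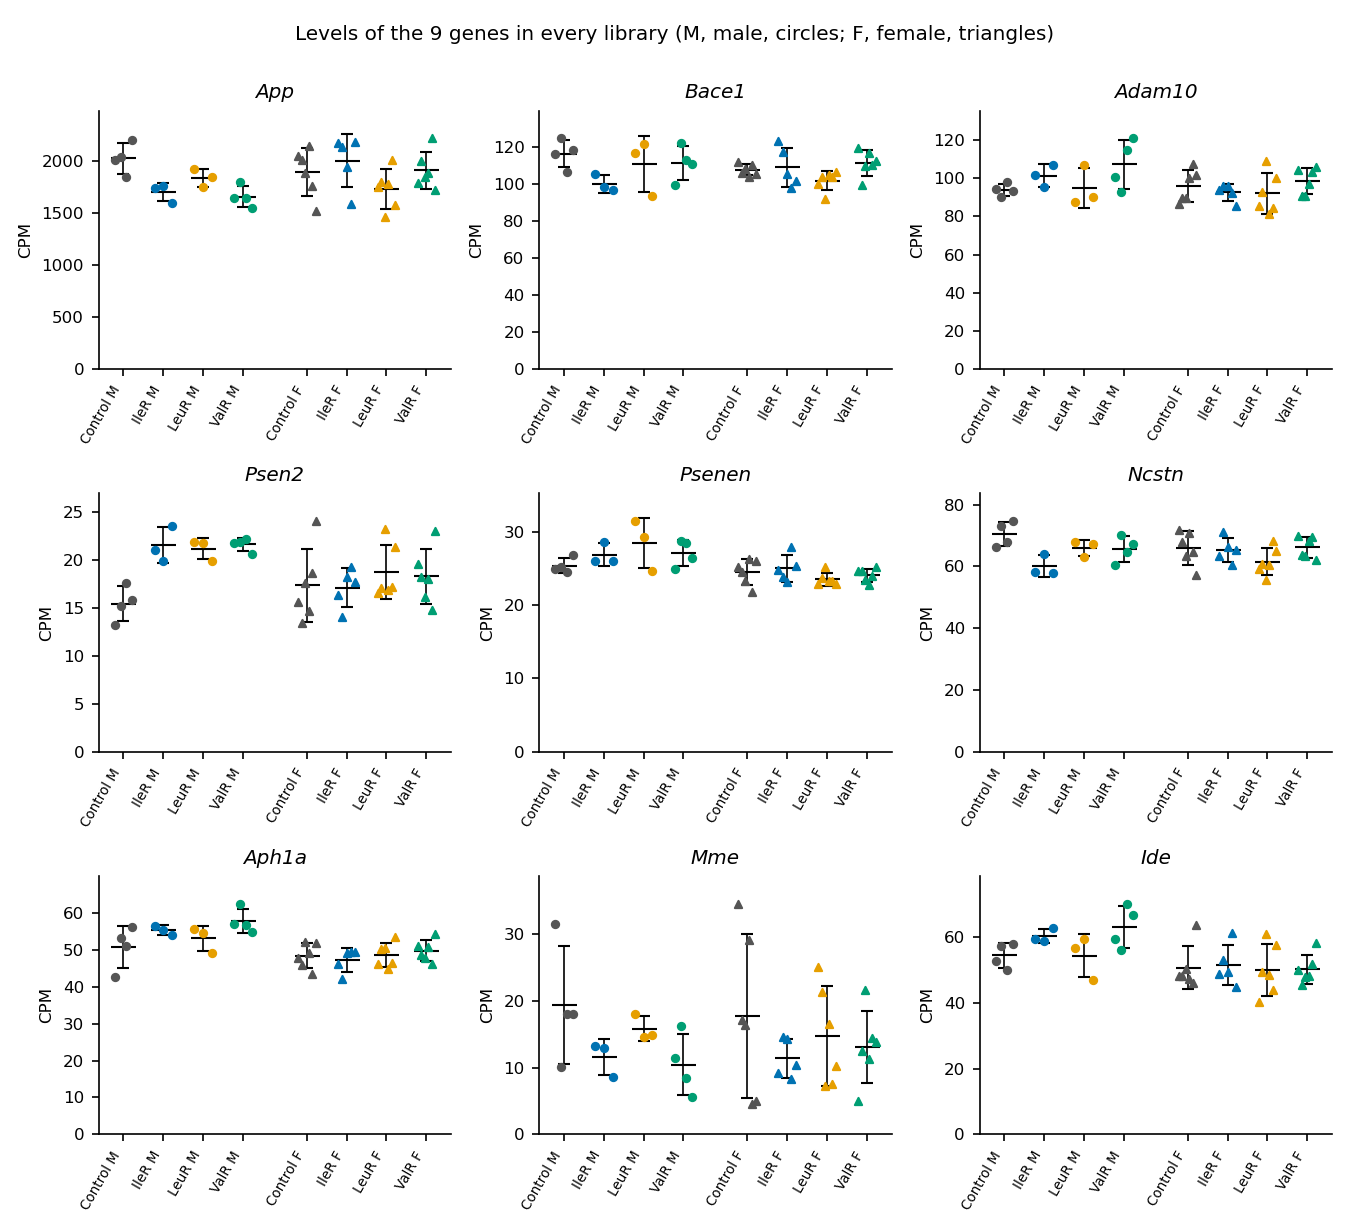
CPM (y axis, from 0) of each gene in every library, by diet and sex (x axis); circles are males, triangles females, and black bars the mean ± SD of each group. Psen2 lies between 19.9 and 23.6 CPM in the 10 restricted males, above the 13.2 to 17.6 CPM of the male Control libraries, while female groups overlap.

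Diet differences were tested with edgeR's quasi-likelihood test and Benjamini-Hochberg adjustment over 22197 genes in males and 20344 in females, and an adjusted p under 0.05 is called here. Each restricted diet was compared with the same Control libraries, so the comparisons are not independent. In IleR males 1 of the 9 genes was called higher and 0 lower, beside 6.63% of all genes higher and 8.68% lower. In LeuR males 1 was higher and 0 lower, beside 3.81% and 6.33% of all genes. In ValR males 1 was higher and 1 lower, beside 11.1% and 12.4% of all genes. The median log2 fold change of the 9 genes was 0.09 in IleR, 0.00 in LeuR and 0.10 in ValR males, and that of all genes 0.04, 0.05 and 0.03. Among 9 genes a single call is a share not far from these backgrounds. Where libraries of a diet are said below to lie apart from every Control, the share of all genes doing so was not counted.

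App, the precursor itself, had 2016, 2044, 1847 and 2210 CPM in the male Control libraries. The ValR males had 1650, 1801, 1644 and 1545 CPM, all below every Control. App fell by 0.29 on the log2 scale in ValR (SE 0.10, edgeR adjusted p = 0.0443). The IleR males had 1747, 1763 and 1599 CPM, also below every Control, with a log2 fold change of -0.25 (SE 0.10) that was not called (adjusted p = 0.123). The LeuR males, at 1926, 1753 and 1844 CPM, overlapped with Control (log2 fold change -0.14, SE 0.10, adjusted p = 0.421). The call in ValR was close to the threshold, and it was lost when any 1 of 10 of the 14 male libraries was left out, with the adjusted p then between 0.0509 and 0.126.

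Bace1, the β-secretase, had 115.8, 124.5, 106.5 and 118.2 CPM in Control males. The IleR males, at 105.2, 98.17 and 96.28 CPM, lay just below every Control (log2 fold change -0.22, SE 0.10, adjusted p = 0.170). LeuR and ValR males overlapped with Control, at log2 fold changes of -0.07 and -0.06 (SE 0.10 and 0.09). Adam10, the α-secretase, had 94.52, 90.0, 98.03 and 93.2 CPM in Control males. In ValR males it had 100.6, 92.76, 115.1 and 121.1 CPM, with a log2 fold change of 0.19 (SE 0.10, adjusted p = 0.167). Its groups overlapped for every diet, and its log2 fold changes in IleR and LeuR were 0.11 and 0.02 (SE 0.10 for both). None of these β- and α-secretase differences was called.

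Psen2, 1 of the genes for the catalytic presenilin of γ-secretase, rose in all 3 restricted diets in males. The Control males had 13.21, 15.15, 17.57 and 15.87 CPM. The IleR males had 21.04, 19.93 and 23.58 CPM, the LeuR males 21.85, 21.75 and 19.92 CPM, and the ValR males 21.81, 21.84, 22.17 and 20.64 CPM. Every restricted male library was above every Control library. The log2 fold change was 0.48 in IleR (SE 0.11, adjusted p = 0.00897), 0.45 in LeuR (SE 0.11, adjusted p = 0.0195) and 0.48 in ValR (SE 0.10, adjusted p = 0.0034). As folds these were 1.39 (95% interval 1.19 to 1.63), 1.37 (1.17 to 1.61) and 1.40 (1.21 to 1.62). The call in LeuR was lost without Control 1, Control 3, LeuR 19 or LeuR 20, with adjusted p between 0.0584 and 0.0823, and that in IleR without IleR 17 (log2 fold change 0.39, adjusted p = 0.0642). The call in ValR held with each male library left out. In bulk tissue, fewer cells of a type cannot be told apart from less RNA per cell, for this and every other gene.

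The other 3 subunit genes of γ-secretase among the 9 were not called in any diet. Psenen, which encodes PEN-2, had log2 fold changes of 0.09 in IleR, 0.17 in LeuR and 0.10 in ValR males (SE 0.10, 0.10 and 0.09). Ncstn, which encodes nicastrin, a subunit that takes part in recognising substrates, had 66.33, 73.02, 67.86 and 74.7 CPM in Control males and 58.23, 64.12 and 57.71 CPM in IleR males. All 3 IleR libraries were below every Control, with a log2 fold change of -0.23 (SE 0.08, adjusted p = 0.0655), while LeuR (-0.09) and ValR (-0.10) overlapped with Control. Aph1a, which encodes a scaffold subunit, had log2 fold changes of 0.12, 0.07 and 0.19 in IleR, LeuR and ValR males (SE 0.09 for each), and all 3 groups overlapped with Control. Bace1, Psenen, Ncstn and Aph1a each overlap an expressed gene on the other strand, and the strand setting of the counting is not given in the sources used here, so reads from the overlaps may be shared.

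Mme, which encodes neprilysin, varied more within groups than any other of the 9 genes except in LeuR males. Its CPM in Control males were 31.46, 10.06, 17.95 and 17.99. The ValR males had 11.44, 16.25, 8.434 and 5.607 CPM and the IleR males 13.28, 12.88 and 8.532 CPM. Both groups overlapped with Control through the single library at 10.06 CPM. The log2 fold change was -0.89 in ValR (SE 0.34, adjusted p = 0.0729) and -0.74 in IleR (SE 0.36, adjusted p = 0.197), and neither was called. DESeq2 called Mme in ValR (adjusted p = 0.0387), as did edgeR without Control 3 (log2 fold change -1.11, adjusted p = 0.0293) or without ValR 9 (-1.19, adjusted p = 0.0242). In LeuR males, at 17.95, 14.6 and 14.9 CPM, the log2 fold change was -0.29 (SE 0.36). Ide, the other degrading protease, had 52.64, 57.22, 50.03 and 58.0 CPM in Control males and 59.28, 58.66 and 62.8 CPM in IleR males, which were all just above Control (log2 fold change 0.15, SE 0.10, adjusted p = 0.383). ValR males had 59.52, 55.89, 70.06 and 66.58 CPM, overlapping with Control (0.21, SE 0.10, adjusted p = 0.133). In LeuR males Ide had 56.63, 59.47 and 46.96 CPM and a log2 fold change of 0.00 (SE 0.10).

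**Figure D2:**
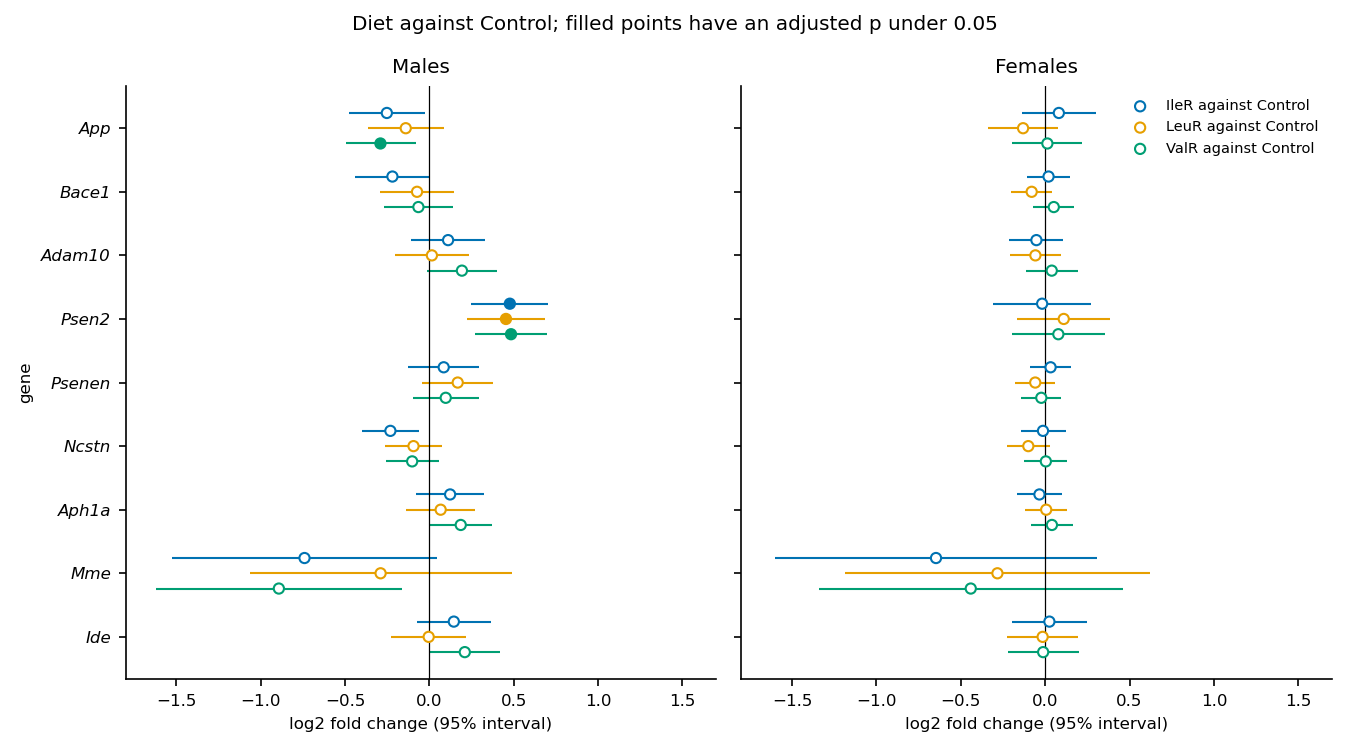
log2 fold changes (x axis) with 95% intervals for each gene (y axis) in males (left) and females (right); colours are the diets and filled points have an adjusted p under 0.05. Filled points are Psen2 in all 3 male comparisons and App in ValR males, and no female point is filled.

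The restricted diets were also compared with each other in males. No gene of the 9 was called for ValR against IleR, ValR against LeuR or IleR against LeuR by edgeR, DESeq2 or limma voom, and 0 had an unadjusted p under 0.05. Over all genes edgeR called 0% for ValR against IleR, 2.75% for ValR against LeuR and 0% for IleR against LeuR. For Psen2 the log2 difference was 0.01 for ValR against IleR, 0.03 for ValR against LeuR and 0.02 for IleR against LeuR (SE 0.11 for each).

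In females none of the 9 genes was called for any diet by edgeR, DESeq2 or limma voom, and 0 had an unadjusted p under 0.05. Over all 20344 genes edgeR called 0% for each diet, with 577 genes in IleR, 820 in LeuR and 777 in ValR at an unadjusted p under 0.05. Psen2 ran from 13.45 to 24.06 CPM in Control females, with a median of 16.6. Its LeuR females ran from 16.59 to 23.18 CPM (median 17.1), its ValR females from 14.81 to 23.04 CPM (median 18.1) and its IleR females had 16.32, 14.05, 18.18, 19.24 and 17.74 CPM. These groups overlapped throughout, and the log2 fold changes against Control were -0.02 in IleR (SE 0.14), 0.11 in LeuR (SE 0.13) and 0.08 in ValR (SE 0.13). App ran from 1519 to 2144 CPM in Control females (median 1948), from 1464 to 2012 CPM in LeuR (median 1768) and from 1725 to 2222 CPM in ValR (median 1868). The IleR females had 2176, 2136, 1944, 1584 and 2185 CPM of App. These groups overlapped too, with log2 fold changes of 0.08 in IleR (SE 0.10), -0.13 in LeuR (SE 0.10) and 0.01 in ValR (SE 0.10). Mme had the widest spread in females as well, from 4.488 to 34.49 CPM on the Control diet (median 16.7), and log2 fold changes of -0.65, -0.28 and -0.44 in IleR, LeuR and ValR (SE 0.46, 0.43 and 0.43). The remaining genes had log2 fold changes between -0.10 and 0.05 in females.

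The difference of the diet effect between males and females was tested in 1 fit over both sexes. None of the 9 genes was called in any diet by edgeR or limma voom, beside 0.0979% of all genes in IleR, 0.00445% in LeuR and 4.25% in ValR. At an unadjusted p under 0.05 there were 4 of the 9 genes in IleR, 1 in LeuR and 2 in ValR, beside 19.1%, 13.0% and 26.0% of all 22465 genes. For Psen2 the male minus female log2 difference was 0.49 in IleR (SE 0.20, adjusted p = 0.185), 0.36 in LeuR (SE 0.19, adjusted p = 0.437) and 0.38 in ValR (SE 0.18, adjusted p = 0.189). For App it was -0.34 in IleR (SE 0.15, adjusted p = 0.231), 0.01 in LeuR (SE 0.15) and -0.32 in ValR (SE 0.14, adjusted p = 0.154).

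The libraries differed in the share of RNA from different brain regions, and in males this moved with diet. Of 12 cerebellar markers, 12 were called higher in IleR, 8 in LeuR and 12 in ValR males, and of 10 brainstem and spinal cord markers 5, 6 and 8. Of 10 forebrain markers, 9, 5 and 9 were called lower. Summed cerebellar markers ran from 167 to 183.7 CPM in Control, from 1757 to 4586 in IleR, from 437 to 1821 in LeuR and from 1870 to 5923 in ValR males. Summed forebrain markers ran from 720.2 to 2067 CPM in Control, from 36.2 to 212.8 in IleR, from 207.4 to 458.9 in LeuR and from 44.6 to 163.8 in ValR males. Summed brainstem and spinal cord markers ran from 1.956 to 10.95 CPM in Control, with Hoxa5, Hoxc4 and Hoxb5 among those at 0, and from 12.81 to 651.4 CPM in restricted males. Of 6 microglial markers, 4 were called lower in ValR, 2 in IleR and 0 in LeuR males. Their sums ran from 248.4 to 284.6 CPM in Control. These sums were below every Control in ValR (140.4 to 227) and LeuR (203.2 to 231) and overlapped in IleR (170.2 to 263.9). Of 7 pan-neuronal markers, 1 was called higher in each diet, and 1 lower in IleR, 1 in LeuR and 2 in ValR males. Their sums ran from 4700 to 6588 CPM in Control, and were below every Control at 3972 to 4466 in IleR and 4092 to 4462 in LeuR, while ValR (4258 to 4924) overlapped. Of 7 oligodendrocyte markers 0 were called, but their sums ran from 4661 to 9762 CPM in Control and from 10390 to 15170 in IleR, which did not overlap, with 6558 to 18270 in LeuR and 9657 to 16630 in ValR. Of 6 astrocyte markers 2 were higher in ValR and 1 in IleR, and their sums, 1175 to 1744 CPM in Control, were above every Control in ValR (1981 to 2527) and IleR (2020 to 2495) and overlapped in LeuR (1351 to 2113). Striatal markers were lower for 2 of 5 in ValR and in IleR, and endothelial, choroid plexus, meningeal and blood markers gave 0 calls in males. The part of these cells in the differences of the 9 genes was not tested. A hindbrain score was taken as the mean log2 CPM of the cerebellar and brainstem markers minus that of the forebrain markers. It ran from -6.98 to -4.28 in Control males and from -3.08 to 5.44 in the restricted males, with no overlap, so diet and the regions in the tissue cannot be told apart in the male comparisons. In females it ran from -6.98 to 4.65, and every diet group reached below -6 and above -1.

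With the score as a covariate, 0 of the 9 genes were called in any male comparison, and over all genes the calls were 0.0135% in IleR, 0.0496% in LeuR and 0% in ValR. The 0 calls among the 9 genes were thus shared by nearly all genes. The log2 fold change of Psen2 was then 0.17 in IleR (95% interval -0.35 to 0.69, adjusted p = 0.91), 0.24 in LeuR (-0.16 to 0.63, adjusted p = 0.786) and 0.13 in ValR (-0.46 to 0.72, adjusted p = 0.933). That of App in ValR was -0.21 (-0.81 to 0.38, adjusted p = 0.878). Score and diet did not overlap between Control and restricted males, and these intervals are wide.

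In females, where the score varied within every diet, most of the 9 genes moved with it. Over the 23 female libraries Psen2 rose with the score (Pearson r = 0.906, Spearman rho = 0.939) and App fell with it (r = -0.851, rho = -0.811). Their permutation p-values for r were 1e-05, the smallest that 100000 resamples can give, and 9e-05 after adjustment over the 18 relations computed. Without the 2 libraries farthest from the median score, r was 0.888 for Psen2 and -0.827 for App, and over deviations from the diet means it was 0.909 and -0.875. The widest gap in the female scores was 3.61 units, between LeuR 45 and the other 22 libraries. Ide (r = 0.711), Adam10 (0.592) and Aph1a (0.550) also rose, and Ncstn (-0.615) and Mme (-0.593) fell, with permutation p-values for r between 0.00096 and 0.0162 after adjustment. By Spearman's rho, Ide (0.475) and Adam10 (0.457) missed the threshold after adjustment (permutation p = 0.0677 and 0.0764). Bace1 (r = -0.328) and Psenen (r = 0.165) did not pass (adjusted permutation p = 0.23 and 0.51).

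The same relation was fitted across all genes in females with diet in the model, a test added after the data had been seen. Of the 9 genes 4 rose and 3 fell with the score, beside 45.9% of all genes called in either direction. Per unit of score, Psen2 changed by 0.0626 on the log2 scale (SE 0.00748, edgeR adjusted p = 5.8e-07), App by -0.0433 (SE 0.0067, adjusted p = 1.59e-05), Ide by 0.0390 (SE 0.00797, adjusted p = 0.000346) and Mme by -0.150 (SE 0.0423, adjusted p = 0.00576). In the 10 restricted males, 0 of the 9 relations passed (adjusted permutation p for r between 0.0593 and 0.86), and the highest r, 0.740 for Ide and 0.716 for Aph1a, were 0.285 and 0.144 without the 2 farthest libraries.

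The levels of App and Psen2 in females can be set beside those of the restricted males, though scaling factors were computed within each sex. Of the 23 females, 7 had a score above that of the lowest restricted male, 2 of them on the Control diet. These 7 had 18.64 to 24.06 CPM of Psen2 and 1464 to 1790 CPM of App. The other 16 had 13.45 to 18.19 CPM of Psen2 and 1754 to 2222 CPM of App. The cut rested on a single male library, LeuR 21 at -3.08, and the next lowest restricted male, LeuR 20, scored 1.03. Among females only ValR 36 (1.04) and LeuR 45 (4.65) scored above LeuR 20, and neither was on the Control diet. Female Control 27, with 17.61 CPM of Psen2, lay just below the cut at -3.09. The highest Psen2 of all 37 libraries, 24.06 CPM, was in a female on the Control diet (Control 30), whose score was 0.69 and whose App was 1519 CPM. App and Psen2 ran opposite to each other across libraries, at r = -0.762 over the 14 males and r = -0.794 over the 23 females, where the points share the score described above.

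**Figure D3:**
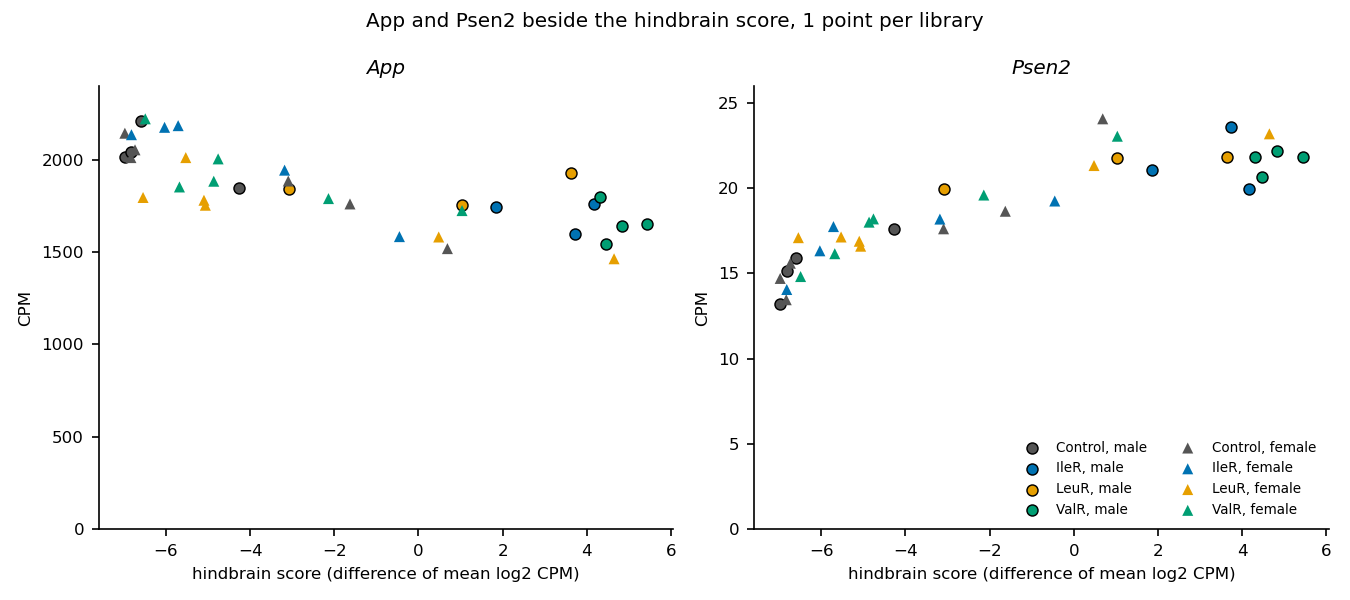
CPM of App (left) and Psen2 (right; y axes from 0) against the hindbrain score (x axis) with 1 point per library; colours are diets, outlined circles males and triangles females. Psen2 is highest and App lowest at high scores in females of every diet, and male Control libraries sit at scores below -4.

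The genes whose log2 CPM ran most like each member were sought among 11159 genes in males and 11021 in females whose log2 CPM averaged 3 or more. For App these were Lrrc8c (r = 0.971), Csgalnact1 (0.956) and Herc6 (0.951) over 14 males, and Rap1gds1 (0.960), Rab18 (0.954) and Rab6b (0.949) over 23 females. For Psen2 they were Acadvl (0.963), Slc29a4 (0.963) and Jam2 (0.953) in males and Eml3 (0.952), Ggact (0.948) and Eps8 (0.942) in females. Psenen was closest to Cox7b (0.952), Atp5mpl (0.916) and Uqcr10 (0.896) in males, whose r in females was 0.02, 0.133 and -0.094, and to Lage3 (0.638), Mpc1 (0.636) and Wdr55 (0.63) in females. Cox7b, Atp5mpl and Uqcr10 encode small subunits of mitochondrial respiratory complexes. Mme was closest to Rasgrp2 (0.915), Adss (0.907) and Pde1b (0.895) in males and to Itga9 (0.909), Shb (0.909) and Pcp4l1 (0.906) in females. Ide was closest to Id2 (0.955), Gm11611 (0.953) and Sh3bp5 (0.951) in males and to Slc35a3 (0.891), Zbtb10 (0.889) and Rmnd5a (0.887) in females. For Adam10 they were Fancg (0.929), Saal1 (0.917) and Kctd12 (0.915) in males and Snx13 (0.818), Tmf1 (0.798) and Ak4 (0.797) in females. For Aph1a they were Aatk (0.923), 4931406P16Rik (0.901) and Gatad2a (0.896) in males and Apod (0.811), Gm2a (0.801) and Gm7964 (0.785) in females. For Ncstn they were Borcs5 (0.849), Rab3a (0.837) and Ak6 (0.809) in males and D6Wsu163e (0.875), Celsr2 (0.874) and Cpped1 (0.853) in females. Bace1 was closest to Gm49654 (0.818), Zfand3 (0.818) and Slc36a1 (0.816) in males and to Stard7 (0.796), Ccn3 (0.793) and Gpd2 (0.744) in females. These values describe libraries that share the diet groups and the score.

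Beyond the 9 genes, 47 other genes of amyloid precursor processing and clearance were listed in 6 groups, and all were tested. In males 8 were called higher and 4 lower in IleR, 4 and 2 in LeuR, and 10 and 9 in ValR. Over all genes, 6.63% were higher and 8.68% lower in IleR, 3.81% and 6.33% in LeuR, and 11.1% and 12.4% in ValR. The 47 genes had median log2 fold changes of 0.24, 0.03 and 0.15 in IleR, LeuR and ValR, beside 0.04, 0.05 and 0.03 over all genes. In females 0 were called in any diet by edgeR, with 1, 1 and 2 at an unadjusted p under 0.05 in IleR, LeuR and ValR.

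Among 12 trafficking factors and modulators in ValR males, 2 rose and 5 fell. Sort1, which encodes the sorting receptor sortilin, had 642.5 ± 123 CPM in Control males (n = 4) and 309.9 ± 16.1 CPM in ValR males (n = 4), a log2 fold change of -1.05 (SE 0.15, adjusted p = 0.000411). It was also lower in IleR (-0.93, adjusted p = 0.00303) and LeuR males (-0.89, adjusted p = 0.00851). Rtn3, a reticulon that binds BACE1, fell in ValR (-0.54, adjusted p = 0.0118) and IleR (-0.48, adjusted p = 0.043) and had -0.09 in LeuR. Gsap, the γ-secretase activating protein, rose in ValR (0.96, adjusted p = 0.00199) and IleR (0.75, adjusted p = 0.0184) and had 0.35 in LeuR. Itm2b, which encodes the BRI2 protein that binds the precursor, rose in ValR (0.58, adjusted p = 0.00539) and had 0.32 and 0.16 in IleR and LeuR.

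Among 12 receptors, carriers and lipid transporters, 4 rose and 1 fell in ValR, 5 rose in IleR and 2 rose in LeuR males. Abca1, a transporter that loads lipid onto apolipoproteins, had 47.04 ± 5.52 CPM in Control and 90.14 ± 14.1 CPM in ValR males, a log2 fold change of 0.94 (SE 0.14, adjusted p = 0.000433). In IleR males it was also higher (0.96, adjusted p = 0.00151), and in LeuR it had -0.04. Its relative Abca7 had 35.84 ± 3.94 and 82.22 ± 10.3 CPM in Control and ValR males (1.20, SE 0.20, adjusted p = 0.000844), rose in IleR (0.81, adjusted p = 0.0197) and had 0.44 in LeuR.

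Of 10 other proteases that can cut amyloid-β, 2 rose and 1 fell in ValR, 2 rose and 1 fell in IleR and 2 rose in LeuR males. The gene that fell was Thop1, a cytosolic metallopeptidase, with -0.49 in ValR (adjusted p = 0.00749) and -0.64 in IleR (adjusted p = 0.00473). Ece2, an endothelin-converting enzyme, rose in all 3 (1.13 in IleR, 1.32 in LeuR and 1.07 in ValR, adjusted p = 0.0259, 0.0194 and 0.0174). Of the 2 homologues of App, Aplp1 fell (-0.49, adjusted p = 0.0123) and Aplp2 rose (0.38, adjusted p = 0.0126) in ValR males. Of 5 adaptors of App, Apba2 fell in IleR (-0.55, adjusted p = 0.0265) and LeuR (-0.62, adjusted p = 0.0218), and Apbb1 fell in ValR (-0.27, adjusted p = 0.044). Of 6 relatives of the secretases, 1 was called, Aph1b in ValR (0.34, adjusted p = 0.0263). Ece2, Aplp1, Aplp2, Apba2, Apbb1 and Aph1b were named after their values were seen.

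The 7 genes named above by the naming rule also moved with the hindbrain score in females. Per unit of score the log2 change was 0.173 for Gsap, 0.170 for Abca7, 0.107 for Abca1, 0.0894 for Itm2b, -0.103 for Sort1, -0.0821 for Rtn3 and -0.0600 for Thop1 (adjusted p at most 5.86e-06). Beside these, 45.9% of all genes were called in either direction for the score in females. The 7 genes were chosen by their adjusted p in ValR males and do not stand for the whole lists. Other listed genes were not called, among them Apba1 (-0.0136, adjusted p = 0.371), Ctsb (0.00439, adjusted p = 0.624) and Apoe (-0.00116, adjusted p = 0.954). The part of the regions in the male differences of the 7 genes was not tested.

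**Figure D4:**
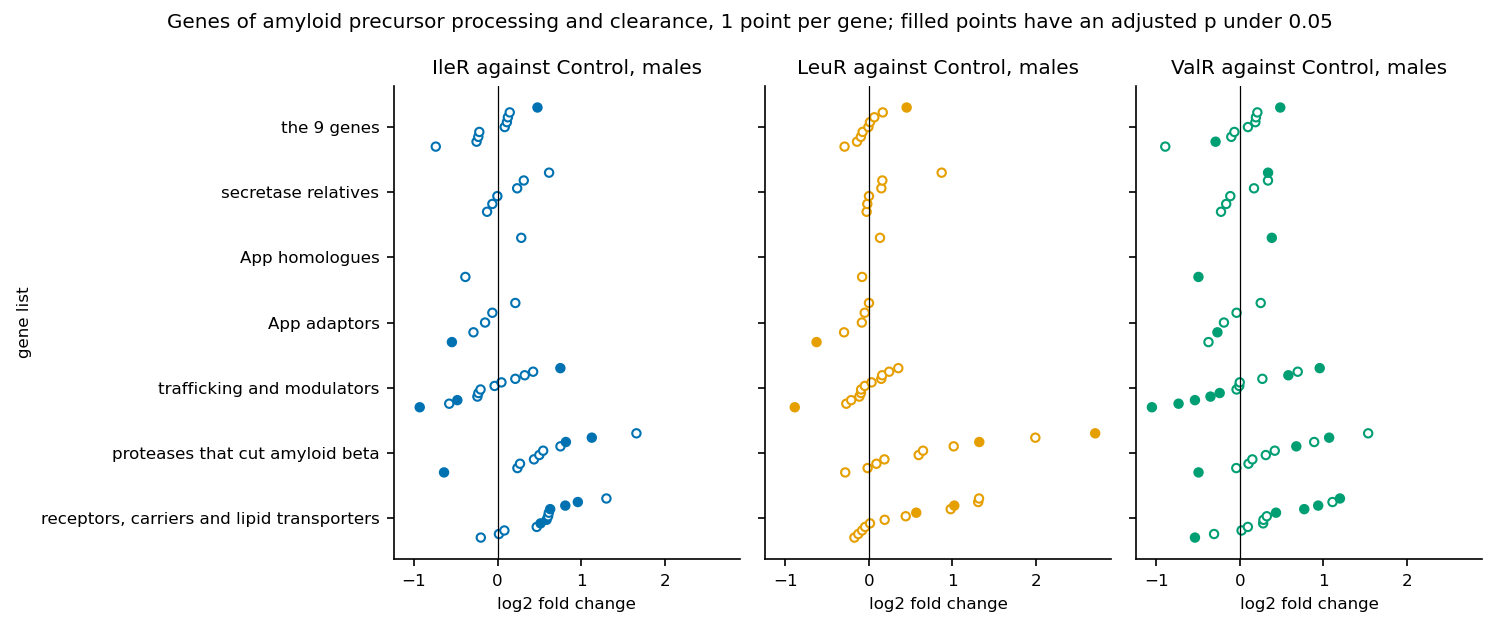
log2 fold changes against Control in males (x axis), 1 point per gene, by gene list (y axis) and diet (panels); filled points have an adjusted p under 0.05. In ValR, 10 of the 47 listed genes beyond the 9 were higher and 9 lower.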

How the data were processed

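Brain RNA was sequenced from 3xTg mice. The labels name both a poly(A)-selected and a total RNA stranded kit, and the protocol text names liver where the tissue label names brain. The paper's methods name the stranded total RNA kit and the left brain hemisphere. The deposited tables hold expected counts per Ensembl gene, which the authors made from reads aligned to mouse GRCm38.p5 and deposited without normalization, 1 table per sex. The aligner and counting strand are not given in the sources used here. The submitters' processing notes name R 3.4.3, edgeR and limma. Deposited tables of the authors' own comparisons, holding log2 fold changes and p-values, were not used.

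Expected counts were rounded. A gene entered the fit where some diet group had no library at 0 (a minimum of 1 count), with 1 fit per sex over 4 diets, with TMM scaling and edgeR's quasi-likelihood test (edgeR 4.0.16, R 4.3.3) and Benjamini-Hochberg adjustment over all genes. limma 3.58.1 (voom) and DESeq2 1.42.0 were alternatives. CPM used TMM library sizes within each sex, and log2 CPM a prior count of 2. Symbols came from GENCODE M21 (52083 of 55416 IDs matched). Labels do not say whether libraries came from separate animals, though the paper's figure legends for the RNA data count mice or animals per group. The p-values measure the spread between these libraries. The lowest chi-square per degree of freedom among 73 replicate pairs was 9.09, so none were duplicates. Correlations used two-sided permutation tests (scipy 1.17.1). The tests were checked on simulated counts.

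The genes and lists were chosen with earlier results of these data known. Named genes were the 9, those called among the 47 others (the 8 with the smallest adjusted p in ValR males, of which 1 is not reported here) and the 3 genes most like each of the 9 per sex.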

Additional observations from a re-analysis of the deposited data

Results flagged for a closer look

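Of 54 combinations of a gene and a diet group of 4 to 6 libraries, 2 held a library that stood apart from the others of its group, where chance alone gives about 1 in 20. Ide was at 63.63 CPM in the female Control 30 library, above the next highest at 50.23 CPM. Psenen was at 25.22 CPM in the female LeuR 45 library, above the next at 23.67 CPM. Control 30 and LeuR 45 were among the 3 female libraries with the highest hindbrain scores, at 0.69 and 4.65, and the part of the score in these 2 values was not tested.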

How the results depend on the processing

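Of 3024 values for single genes under other settings, 2995 stayed on their side of the threshold, 22 lost the call and 7 gained it, and no called gene changed its direction. Of the 9 genes, the number called in IleR males was 1, and it was 3 with DESeq2 (App, Ncstn and Psen2), 2 with RLE size factors and 2 with edgeR's stricter filterByExpr (Ncstn and Psen2 in both), and 0 with the hindbrain score as a covariate. In LeuR males it was 1, and it was 0 when fitted on the 2 groups compared alone and 0 with the score as a covariate. In ValR males it was 2, and it was 3 with DESeq2, where Mme was added, 1 without a filter on low counts and 1 with the 2 groups alone, where App was lost, and 0 with the score. Leaving out each library in turn gave 0 to 1 in IleR, 0 to 1 in LeuR and 1 to 3 in ValR. Except with the score as a covariate, the share of all genes called under these settings is not given here, so the counts describe the 9 genes alone. The App call in ValR (adjusted p = 0.0443) was 0.104 without the filter and 0.07 with the 2 groups alone. Counts between restricted diets, in females and for the difference between sexes were 0 under every setting run. The cause of these changes was not tested. No paired analysis was possible because each library carries a replicate number of its own. Psen2 rested on 194 to 529 counts per male library, and the male groups on 3 or 4 libraries each.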
